A study of Mus musculus with 4 samples.

Results

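The genes that build the centromere and kinetochore and run the spindle checkpoint were followed in donor hematopoietic cells that had spent a day in a recipient's bone marrow. The set holds 39 genes of the 23284 in the deposited tables. They were chosen by name for their part in these structures, with earlier results of these data known. Of the 39 genes, 36 were found under their own symbol. Ska2, Ska3 and Mis18a were found under the older names Fam33a, F630043A04Rik and 2610039C10Rik, by way of RefSeq synonyms, and Casc5 is the older name of Knl1.

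The donor cells were LSK cells (negative for lineage markers and positive for Sca1 and c-Kit, the marrow fraction in which stem and early progenitor cells lie) of mice carrying EGFP under the CAG promoter, which is active in nearly all cell types. Each recipient received 100000 of them. There were 2 groups of wild-type recipients with 2 libraries in each, and the age of the mice is not stated in the labels. The 5-FU recipients had been injected intravenously with 5-fluorouracil, a pyrimidine analog that kills dividing cells, at 200 mg/kg 2 days before the transplant, and the control recipients had no such treatment. EGFP+ cells were sorted from the marrow of each recipient 24 h after the transplant, so the control libraries too are from cells sorted out of a transplanted recipient. The comparison asks whether the transcripts for chromosome segregation differed between cells that had entered a 5-FU-treated marrow and cells that had entered an untreated one.

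The centromere is marked by nucleosomes that carry CENP-A in place of histone H3. A layer of many proteins, the constitutive centromere-associated network (CCAN), binds them, and in mitosis the MIS12 and NDC80 complexes and KNL1 are built on that layer and grip the spindle microtubules. Kinetochores that are not yet attached send out the checkpoint signal of MAD2, BUBR1 and BUB3, which holds back the anaphase-promoting complex until every chromosome is attached. In the marrow, long-lived stem cells divide seldom and their progeny divide often.

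Many promoters of genes used in G2 and mitosis carry a pair of elements, a CCAAT box and, close to the start site, a cell cycle homology region. RefSeq promoter windows (build GRCm38.p6, from 250 bases before to 50 bases after an annotated start) were at hand for 35 of the 39 genes, and those of Spc25, Ttk and Mis12 are shown because the first 2 genes rose clearly in 5-FU recipients and Mis12 was the gene whose groups stood closest. Capitals mark CCAAT on either strand and the cell cycle homology region, searched as TTTGAA or TTCGAA on either strand.
Spc25, chr2:69206164-69206463, minus strand: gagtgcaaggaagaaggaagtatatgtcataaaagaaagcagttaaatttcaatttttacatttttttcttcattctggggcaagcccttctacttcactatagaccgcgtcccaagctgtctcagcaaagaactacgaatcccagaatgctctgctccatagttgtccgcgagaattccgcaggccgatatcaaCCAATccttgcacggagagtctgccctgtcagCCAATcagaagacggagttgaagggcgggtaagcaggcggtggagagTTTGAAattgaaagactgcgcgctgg
Ttk, chr9:83834439-83834738, plus strand: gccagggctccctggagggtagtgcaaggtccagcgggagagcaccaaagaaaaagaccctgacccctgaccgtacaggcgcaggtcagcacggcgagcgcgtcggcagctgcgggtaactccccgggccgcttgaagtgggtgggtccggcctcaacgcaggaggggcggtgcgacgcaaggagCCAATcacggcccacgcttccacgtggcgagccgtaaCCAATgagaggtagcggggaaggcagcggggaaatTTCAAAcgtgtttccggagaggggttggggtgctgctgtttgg
Mis12, chr11:71019361-71019660, plus strand: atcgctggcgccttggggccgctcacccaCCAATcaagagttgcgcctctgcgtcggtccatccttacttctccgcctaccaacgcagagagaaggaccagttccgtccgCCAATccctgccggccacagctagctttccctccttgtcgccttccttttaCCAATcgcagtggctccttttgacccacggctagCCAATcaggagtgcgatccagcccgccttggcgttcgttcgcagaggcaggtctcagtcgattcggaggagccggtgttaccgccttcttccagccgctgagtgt

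In Spc25 the CCAAT boxes began 55 and 23 bases before the start and the homology region 25 bases after it. In Ttk the boxes began 65 and 28 bases before the start and the homology region, read on the other strand, 8 bases after it. The Mis12 window held 4 CCAAT boxes and no match to the homology region. These windows do not stand for the set, since Nuf2 and Cenpp rose too and their windows held neither element. Hjurp, Cenpf and Cenpn did not pass the test described below, yet their windows held both.

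The values are FPKM (fragments per kilobase of transcript, scaled to the mapped reads of the library), and 11496 genes with at least 1 FPKM in at least 2 libraries were compared with limma on log2(FPKM + 1), so differences of low genes are understated. All 39 genes passed that filter, and all but Bub1 in control recipient 1 reached 1 FPKM in each library. A read was worth 1.07 and 1 in 5-FU recipients 1 and 2 and 1.31 and 1.26 in control recipients 1 and 2, relative to 5-FU recipient 2, so the control libraries were the less finely resolved. Transcripts of other cell types were present throughout. The 14 macrophage markers, such as Csf1r and Emr1, were at 1 FPKM or more in every library. They summed to 21391 and 11206 FPKM in 5-FU recipients 1 and 2, against 24521 and 28730 FPKM in control recipients 1 and 2, whereas 13 stem and progenitor markers summed to 571 and 803 FPKM in 5-FU recipients and 717 and 596 FPKM in control recipients. Neutrophil markers (9 genes) summed to 3611 and 3434 FPKM in 5-FU recipients, against 12598 and 9803 FPKM in control recipients, and erythroid markers (11 genes) to 182 and 265 FPKM, against 1610 and 2274 FPKM. B cell markers (9 genes) summed to 201 and 158 FPKM in 5-FU recipients, against 365 and 372 FPKM in control recipients, and T and NK cell markers (9 genes) to 230 and 352 FPKM, against 170 and 178 FPKM. Nkg7 carried most of that sum, with 184 and 314 FPKM in 5-FU recipients, against 109 and 91.1 FPKM in control recipients, and the other 8 summed to 45.4 and 38.7 FPKM in 5-FU recipients, against 60.7 and 86.6 FPKM in control recipients.

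Transcripts of the centromere and kinetochore were higher in cells from 5-FU recipients, in nearly every layer of the structure. Of the 39 genes, 24 rose at an adjusted p under 0.05 and none fell, against 8.23% of all tested genes that rose and 4.67% that fell. No gene of the set was lower at an unadjusted p under 0.05, and 31 were higher. Among all 11496 tested genes 3607 had such a p, and 1659 of these were lower in 5-FU recipients. The log2 differences of the 24 lay between 1.15 and 2.41, with adjusted p between 0.0079 and 0.045. The fitted difference was positive for 38 genes of the set (49.2% of all tested genes). The median over the 39 genes was 1.30 on the log2 scale, beside -0.01 over all tested genes. Both 5-FU libraries lay above both control libraries for 36 genes of the set (31.4% of all tested genes), and for 18 genes each 5-FU library was at least 2-fold above each control library (4.51% of all tested genes). Cenpo had its 5-FU libraries below its control libraries, and the groups overlapped for Mis18a and Mis12. With no filter on low values none of the 39 passed in limma. Of these, 31 had an unadjusted p under 0.05, as did 3680 of the 16391 genes then tested. Without control recipient 1 the number that rose was 4, and without control recipient 2 it was 8. Of the 24, 19 kept their call under 10 other settings of scaling, pseudocount, model and a stricter filter, and Oip5, Cenpk, Pmf1, Casc5 and Ndc80 lost it under at least 1 of them. Spc24, Cenpm and Bub1b rose whichever of the 4 libraries was left out.

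**Figure D1:**
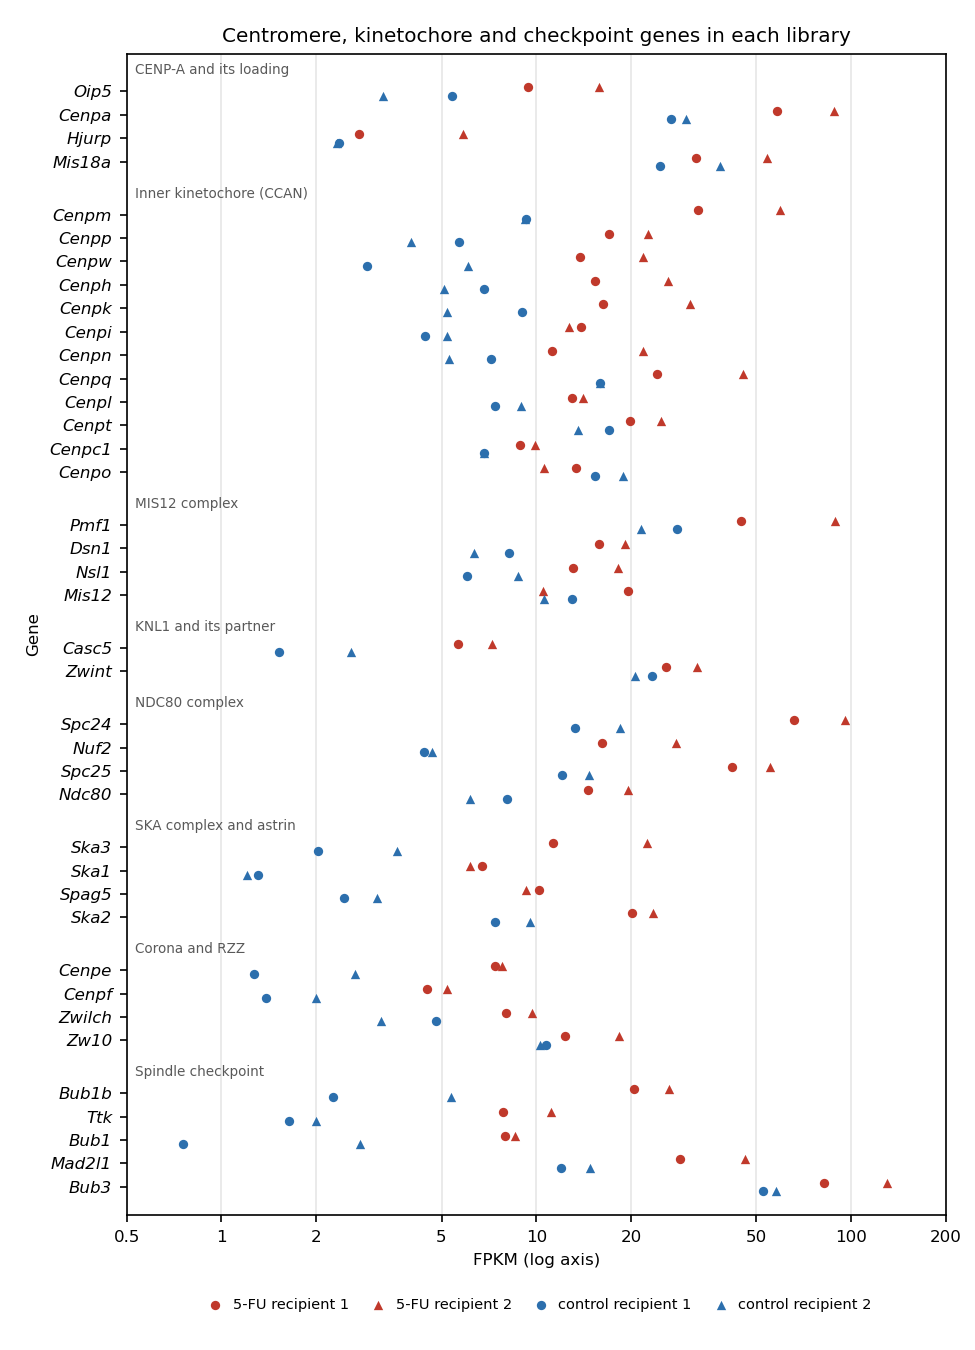
FPKM (log axis) of the 39 genes in each of the 4 libraries, grouped by role, with red for 5-FU recipients, blue for control recipients, circles for recipient 1 and triangles for recipient 2. The red points lie right of the blue points for 36 genes, left of them for Cenpo and among them for Mis18a and Mis12.

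The level of the set within the 5-FU pair followed the recipient. In 5-FU recipient 2, 34 of the 39 genes were above their value in 5-FU recipient 1, as were 51.9% of all tested genes. The 5 that were not are Cenpi, Cenpo, Mis12, Ska1 and Spag5. The set summed to 793 and 1163 FPKM in 5-FU recipients 1 and 2, against 385 and 411 FPKM in control recipients 1 and 2. As given above, the macrophage sum was lower and the stem and progenitor sum higher in 5-FU recipient 2 than in 5-FU recipient 1. Fewer cells of a type and less RNA per cell cannot be told apart in these bulk libraries, and the part of the other cell types in the difference was not tested. Per FPKM of the stem and progenitor markers, the set stood at 1.39 and 1.45 in 5-FU recipients and at 0.538 and 0.689 in control recipients. The genes of that stem and progenitor list went both ways, with 6 of the 12 tested positive and 6 negative. Per FPKM of 9 general genes of cell division (Mki67, Top2a, Ccnb1, Cdk1, Pcna, Mcm2, Mcm3, Mcm5 and Ccne1) the set stood at 1.26 and 1.33 in 5-FU recipients and 1.21 and 1.34 in control recipients, and there the groups overlapped. Pcna, which did not pass, was the largest part of that 9-gene sum. It had 214 and 273 of 632 and 877 FPKM in 5-FU recipients 1 and 2. In control recipients 1 and 2 it had 158 and 133 of 319 and 306 FPKM. The 7 genes of that list that rose had log2 differences of 1.17 (Mcm3) to 2.45 (Ccnb1), against 0.73 for Pcna and 0.56 for Ccne1. The overlap is therefore that of a sum led by Pcna. It cannot show that the set kept pace with the other genes of cell division, and the ratio without Pcna was not tested.

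**Figure D2:**
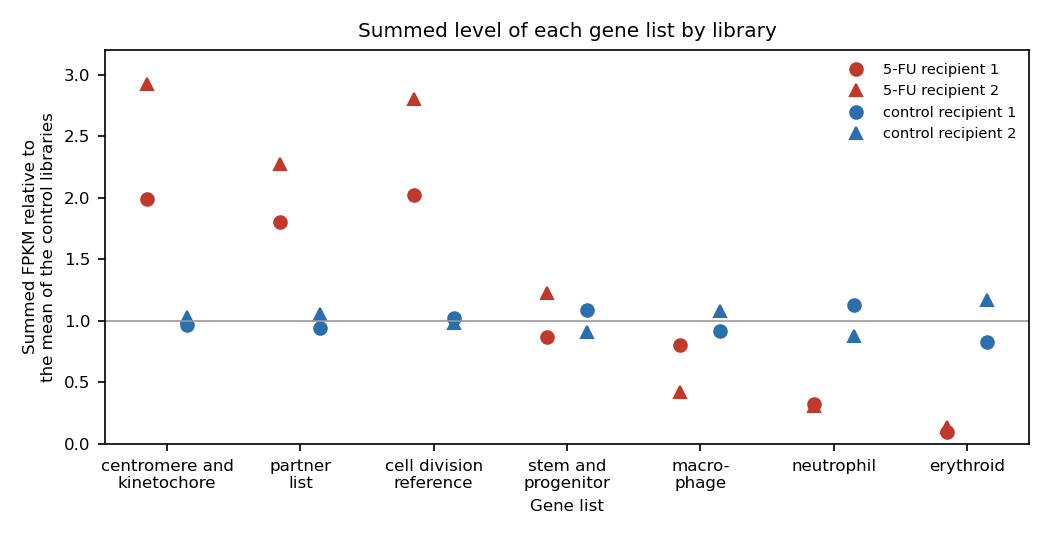
Summed FPKM of the gene sets and the main marker lists in each library, divided by the mean of the 2 control libraries, with 5-FU recipients left of control recipients. The centromere and kinetochore set stood at 1.99 and 2.92 in 5-FU recipients 1 and 2 and the cell division genes at 2.02 and 2.81, whereas macrophage markers stood at 0.803 and 0.421.

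At the base of the structure, Cenpa, the histone variant that marks the centromere, rose. It had 58.3 and 88.1 FPKM in 5-FU recipients 1 and 2, against 26.9 and 29.8 FPKM in control recipients 1 and 2, a log2 difference of 1.31 (SE 0.24, adjusted p = 0.019). Each 5-FU library was at least 1.95-fold above each control library. Of the 3 genes that place CENP-A, 1 passed, and differences between them were not tested. Oip5, which encodes the beta subunit of the MIS18 complex, rose, with 9.40 and 15.8 FPKM in 5-FU recipients and 5.40 and 3.25 FPKM in control recipients (log2 difference 1.34, SE 0.35, adjusted p = 0.045). That call was close to the threshold and was lost with a pseudocount of 0.1 (adjusted p = 0.050), quantile scaling (0.056), TPM scaling (0.059) or no mean-variance trend (0.060), and without either control recipient or 5-FU recipient 2. Mis18a, the partner subunit, had 32.2 and 54.1 FPKM in 5-FU recipients, against 24.7 and 38.4 FPKM in control recipients, with overlapping groups (log2 difference 0.43, adjusted p = 0.38). Hjurp, the chaperone that carries CENP-A, had 2.73 and 5.84 FPKM in 5-FU recipients, against 2.36 and 2.32 FPKM in control recipients (log2 difference 0.60, adjusted p = 0.30), so 5-FU recipient 1 lay close to the controls. Cenpa was thus 21.3 and 15.1 times the level of Hjurp in 5-FU recipients and 11.4 and 12.9 times in control recipients.

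In the inner kinetochore, 6 of the 12 CCAN genes in the set rose, none fell and 6 did not pass. Those that rose include all 4 genes of the CENP-H, CENP-I, CENP-K and CENP-M subcomplex, at log2 differences of 1.30 to 2.14. Cenpm led, with 32.8 and 59.6 FPKM in 5-FU recipients, against 9.28 and 9.18 FPKM in control recipients (log2 difference 2.14, SE 0.30, adjusted p = 0.011). The control recipients were nearly equal there, while the 5-FU recipients were far above them and unlike each other. Cenph stood at 15.4 and 26.2 FPKM in 5-FU recipients, against 6.82 and 5.10 FPKM in control recipients, and Cenpk at 16.3 and 30.9 FPKM, against 9.004 and 5.21 FPKM. Cenpi, on the X chromosome, had 13.8 and 12.7 FPKM in 5-FU recipients, against 4.43 and 5.20 FPKM in control recipients, and was steadier within the 5-FU pair than its partners.

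The CENP-L and CENP-N pair, which reads the CENP-A nucleosome, did not pass. Cenpn had 11.2 and 21.9 FPKM in 5-FU recipients, against 7.18 and 5.30 FPKM in control recipients (log2 difference 1.22, SE 0.35, adjusted p = 0.058), and Cenpl had 12.9 and 14.1 FPKM, against 7.38 and 8.92 FPKM (log2 difference 0.67, adjusted p = 0.11). The groups did not overlap for either gene. Cenpc1, whose product links CENP-A to the MIS12 complex, had 8.86 and 9.88 FPKM in 5-FU recipients, against 6.81 and 6.84 FPKM in control recipients, the smallest positive difference of the network (log2 difference 0.40, adjusted p = 0.31).

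The CENP-T and CENP-W pair, a histone-fold dimer that offers a separate route to the NDC80 complex, was uneven. Cenpw rose, with 13.8 and 21.8 FPKM in 5-FU recipients and 2.89 and 6.05 FPKM in control recipients (log2 difference 1.81, SE 0.37, adjusted p = 0.023). Cenpt had 19.9 and 24.9 FPKM in 5-FU recipients, against 17.0 and 13.6 FPKM in control recipients, and did not pass (log2 difference 0.52, adjusted p = 0.18). Cenpw was accordingly 0.694 and 0.877 times the level of Cenpt in 5-FU recipients, against 0.170 and 0.446 times in control recipients. The difference between the 2 changes was not tested.

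The CENP-O, CENP-P and CENP-Q genes gave the widest contrast within a subcomplex, among the genes of the set. Mlf1ip (CENP-U) and Itgb3bp (CENP-R), of the same subcomplex, lie outside the set, and neither passed in limma. Their log2 differences were 0.41 (adjusted p = 0.45) and 0.06 (adjusted p = 0.93), with overlapping groups. Cenpp had 17.0 and 22.6 FPKM in 5-FU recipients, against 5.69 and 3.997 FPKM in control recipients, and rose (log2 difference 1.83, SE 0.28, adjusted p = 0.014). Cenpq had 24.2 and 45.3 FPKM in 5-FU recipients, against 15.9 FPKM in each control recipient (log2 difference 1.01, adjusted p = 0.065). Cenpo, on chromosome 12 at 4195398 to 4234255 (GRCm38.p6), was the 1 gene of the set with a negative difference, at 13.4 and 10.6 FPKM in 5-FU recipients, against 15.3 and 18.9 FPKM in control recipients, and it did not pass (log2 difference -0.48, SE 0.25, adjusted p = 0.22). Cenpp and Cenpo each share exons with a neighbour on the opposite strand, and no source at hand says whether the counting used strand. Of the distinct stretches of 75 bases, the read length, in annotated Cenpo transcripts, 17.4% also occur in other genes, mostly Adcy3, an adenylate cyclase gene at 17.3 and 4.43 FPKM in 5-FU recipients and 15.0 and 22.0 FPKM in control recipients. For Cenpp the share is 9.76%, mostly with Ippk, an inositol phosphate kinase gene, which rose too, by 1.26 (SE 0.33, adjusted p = 0.047). Oip5 (with Nusap1), Ska2 (with Gm11491), Mis12 (with Derl2) and Zwilch (with Lctl) also overlap a gene on the opposite strand, over 5.93% to 10.06% of their exon bases. The part of these neighbours in the values was not tested.

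**Figure D3:**
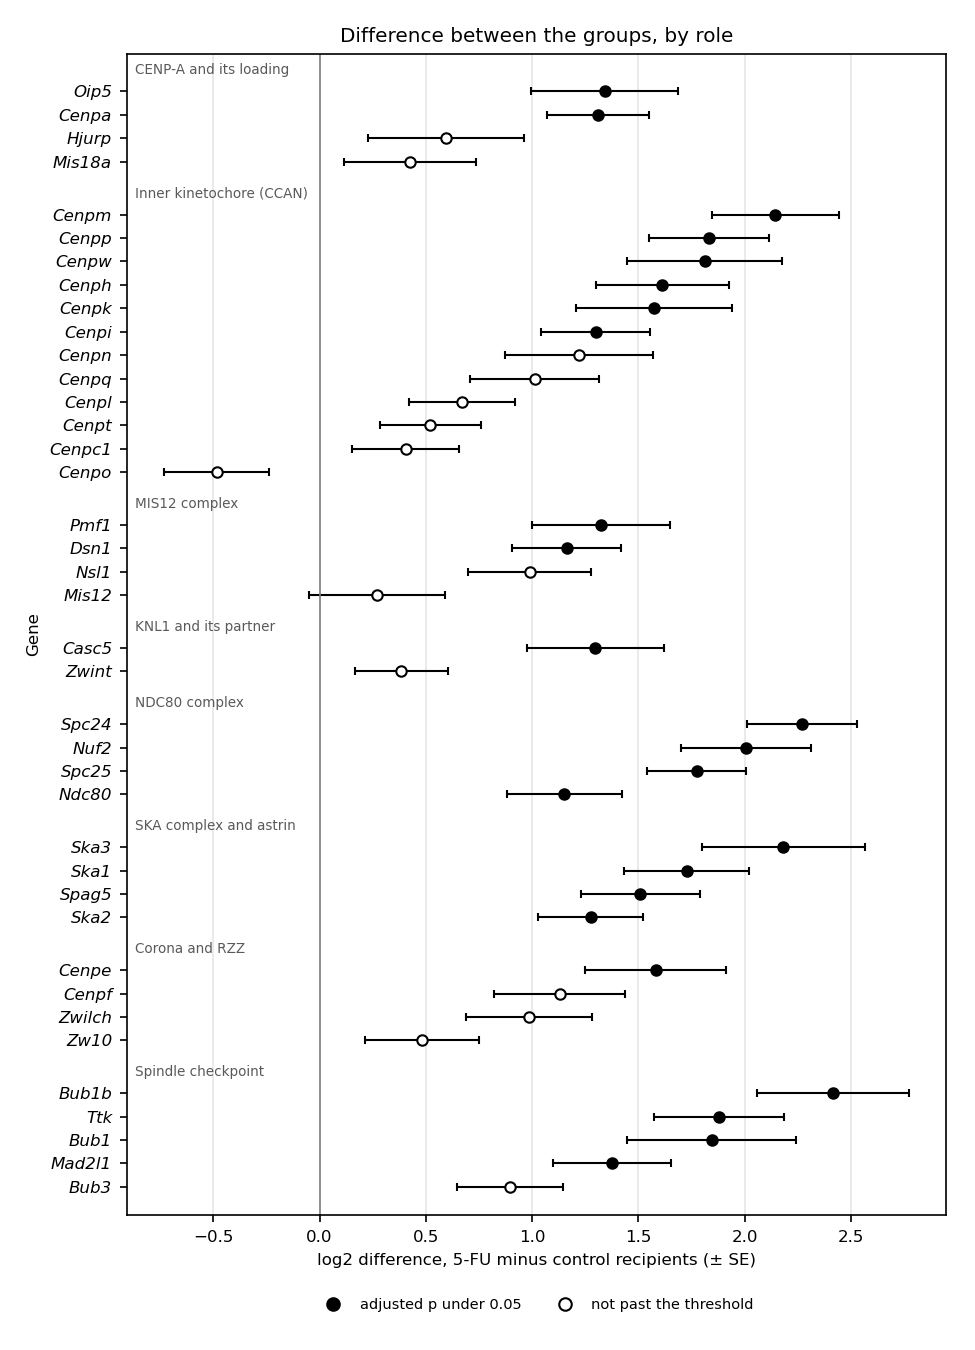
Log2 difference in FPKM + 1, 5-FU minus control recipients, with its standard error, for the 39 genes by role. Filled circles mark the 24 genes with an adjusted p under 0.05. All 4 genes of the NDC80 complex and all 4 of the SKA complex with astrin are filled, and Cenpo alone lies left of 0.

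In the outer kinetochore, the genes of the NDC80 and SKA complexes rose without exception. All 4 genes of the NDC80 complex, the rod that holds the microtubule, passed. Spc24, on chromosome 9 at 21755434 to 21760446 (GRCm38.p6), had the smallest p of the set, with 65.9 and 95.4 FPKM in 5-FU recipients, against 13.2 and 18.4 FPKM in control recipients (log2 difference 2.27, SE 0.26, adjusted p = 0.0079). Its inner partner Spc25 had 41.8 and 55.3 FPKM in 5-FU recipients, against 12.1 and 14.7 FPKM in control recipients (log2 difference 1.77, SE 0.23, adjusted p = 0.0099). Nuf2, of the microtubule-facing end, had 16.2 and 27.8 FPKM in 5-FU recipients, against 4.38 and 4.67 FPKM in control recipients (log2 difference 2.01, SE 0.31, adjusted p = 0.013).

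Ndc80, which gives the complex its name and binds the microtubule, had the smallest rise of the 4. It had 14.6 and 19.6 FPKM in 5-FU recipients, against 8.10 and 6.16 FPKM in control recipients (log2 difference 1.15, SE 0.27, adjusted p = 0.035). On the FPKM scale, which is per length of transcript, Spc24 was 4.51 and 4.87 times the level of Ndc80 in 5-FU recipients and 1.63 and 2.99 times in control recipients. For Nuf2 over Ndc80 these ratios were 1.11 and 1.42 in 5-FU recipients and 0.541 and 0.759 in control recipients, so the 4 transcripts, whose proteins form a complex with a copy of each, were not at equal levels in either group.

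The SKA complex stabilises the grip on the microtubule, and its 3 genes rose together with Spag5, which encodes the spindle protein astrin. Ska3 had 11.3 and 22.4 FPKM in 5-FU recipients, against 2.03 and 3.60 FPKM in control recipients (log2 difference 2.18, SE 0.38, adjusted p = 0.017). Ska1 had 6.74 and 6.18 FPKM in 5-FU recipients, against 1.30 and 1.20 FPKM in control recipients (log2 difference 1.73, SE 0.29, adjusted p = 0.016). Of the whole set Ska1 had the widest gap between the groups, the lower 5-FU library standing at 4.74 times the higher control library. Spag5 had 10.2 and 9.26 FPKM in 5-FU recipients, against 2.45 and 3.12 FPKM in control recipients (log2 difference 1.51, SE 0.28, adjusted p = 0.019). Ska2 had 20.2 and 23.6 FPKM in 5-FU recipients, against 7.41 and 9.55 FPKM in control recipients (log2 difference 1.28, SE 0.25, adjusted p = 0.021). In Ska1 and Spag5 the pairs within each group were close.

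The platform beneath had calls for some of its genes. In the MIS12 complex, which joins the inner to the outer kinetochore, 2 of 4 genes rose. Pmf1 had 44.7 and 88.9 FPKM in 5-FU recipients, against 28.1 and 21.6 FPKM in control recipients (log2 difference 1.32, SE 0.33, adjusted p = 0.040), and Dsn1 had 15.8 and 19.2 FPKM, against 8.22 and 6.34 FPKM (log2 difference 1.16, SE 0.26, adjusted p = 0.029). Nsl1 had 13.1 and 18.2 FPKM in 5-FU recipients, against 6.03 and 8.74 FPKM in control recipients, with groups apart but no call (log2 difference 0.99, adjusted p = 0.061). Mis12 had 19.5 and 10.5 FPKM in 5-FU recipients, against 12.97 and 10.6 FPKM in control recipients, and 5-FU recipient 2 lay below both controls (log2 difference 0.27, adjusted p = 0.61). Casc5 (KNL1), the scaffold on which checkpoint proteins gather, rose from a low level, with 5.64 and 7.22 FPKM in 5-FU recipients and 1.52 and 2.58 FPKM in control recipients (log2 difference 1.30, SE 0.32, adjusted p = 0.040). Its partner Zwint stood at 25.8 and 32.3 FPKM in 5-FU recipients, against 23.3 and 20.6 FPKM in control recipients, and did not pass (log2 difference 0.39, adjusted p = 0.27).

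The corona, the outermost layer of unattached kinetochores, had 1 call in 4 genes. Cenpe, a kinesin that carries chromosomes to the spindle's middle, had 7.41 and 7.81 FPKM in 5-FU recipients, against 1.27 and 2.65 FPKM in control recipients (log2 difference 1.58, SE 0.33, adjusted p = 0.026). Cenpf, a large corona protein, had 4.51 and 5.21 FPKM in 5-FU recipients, against 1.38 and 2.00 FPKM in control recipients, and lay just outside the threshold (log2 difference 1.13, SE 0.31, adjusted p = 0.052). The RZZ complex brings dynein and MAD1 to the kinetochore. Its gene Zwilch had 7.99 and 9.67 FPKM in 5-FU recipients, against 4.80 and 3.21 FPKM in control recipients (log2 difference 0.99, adjusted p = 0.066). Zw10, which also acts in vesicle traffic outside mitosis, had 12.3 and 18.3 FPKM in 5-FU recipients, against 10.7 and 10.2 FPKM in control recipients (log2 difference 0.48, adjusted p = 0.25). Kntc1, of the same complex, lies outside the set and rose. It had 6.47 and 6.27 FPKM in 5-FU recipients, against 1.12 and 1.63 FPKM in control recipients (log2 difference 1.64, SE 0.30, adjusted p = 0.019).

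Of the 5 spindle checkpoint genes, 4 rose. Bub1b, which encodes BUBR1, the inhibitor within the checkpoint complex, had the largest log2 difference of the set. It had 20.5 and 26.3 FPKM in 5-FU recipients, against 2.26 and 5.35 FPKM in control recipients (log2 difference 2.41, SE 0.36, adjusted p = 0.012). Ttk, the kinase MPS1 that starts the signal, had 7.82 and 11.2 FPKM in 5-FU recipients, against 1.64 and 2.00 FPKM in control recipients (log2 difference 1.88, SE 0.31, adjusted p = 0.015). Bub1, the kinase that docks on KNL1, had 7.93 and 8.54 FPKM in 5-FU recipients, against 0.756 and 2.76 FPKM in control recipients (log2 difference 1.84, SE 0.40, adjusted p = 0.027). The 5-FU pair was close for Bub1, and the control pair was not.

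Mad2l1, the MAD2 protein that captures CDC20, had 28.6 and 46.0 FPKM in 5-FU recipients, against 12.01 and 14.9 FPKM in control recipients (log2 difference 1.38, SE 0.28, adjusted p = 0.023). Bub3, the adaptor shared by BUB1 and BUBR1, was the most abundant transcript of the set in all 4 libraries. It had 81.9 and 129.9 FPKM in 5-FU recipients, against 52.4 and 57.9 FPKM in control recipients, and did not pass (log2 difference 0.89, SE 0.25, adjusted p = 0.055). The Bub1b level was 0.250 and 0.203 of the Bub3 level in 5-FU recipients and 0.0431 and 0.0925 of it in control recipients.

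Across the 39 genes, those with low control levels had the larger differences (Pearson's r = -0.42 and Spearman's rho = -0.42 between the mean control level on the log2 scale and the log2 difference, across genes that share the same 4 libraries, the control level entering both measures). Between the mean levels of the groups, 5-FU and control, Pearson's r was 0.84 and Spearman's rho 0.77. Spc24 stood second of 39 in each 5-FU library, against ninth and seventh in control recipients 1 and 2, and Cenpo stood at place 23 and 29 in 5-FU recipients 1 and 2, against 8 and 6 in control recipients 1 and 2.

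Genes that work with the kinetochore but lie outside the set were counted in a separate list of 34 genes, of which 33 were tested. Of these 17 rose, none fell and 16 did not pass, beside the same shares of all tested genes as above, with a median log2 difference of 1.14. At an unadjusted p under 0.05, 1 of them was lower, beside 1659 of all 11496 tested genes. The number that rose was 3 without control recipient 1 and 5 without control recipient 2. The 4 with the smallest p were Birc5 (survivin), Aurkb and Cdca8 (borealin), all of the chromosomal passenger complex that corrects faulty attachments, and Cdc20, the activator that the checkpoint holds back. Aurkb had 49.5 and 70.6 FPKM in 5-FU recipients, against 6.47 and 13.4 FPKM in control recipients (log2 difference 2.54, SE 0.34, adjusted p = 0.010). Birc5 had 89.0 and 123.8 FPKM, against 25.8 and 27.1 FPKM (log2 difference 1.95, SE 0.22, adjusted p = 0.0078). Cdca8 had 70.4 and 111.1 FPKM in 5-FU recipients, against 18.4 and 26.8 FPKM in control recipients (log2 difference 1.94, SE 0.28, adjusted p = 0.012). Cdc20 had 40.8 and 58.3 FPKM in 5-FU recipients, against 12.8 and 15.97 FPKM in control recipients (log2 difference 1.70, SE 0.25, adjusted p = 0.012). The groups did not overlap for any of the 4.

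A pair from the same list, singled out after its values were seen, concerns the step that the checkpoint controls. Espl1 encodes separase, the protease that opens cohesin rings at anaphase, and Pttg1 encodes securin, its inhibitor. Espl1 rose, with 7.48 and 6.27 FPKM in 5-FU recipients and 0.811 and 1.87 FPKM in control recipients (log2 difference 1.78, SE 0.34, adjusted p = 0.020). Pttg1 had 81.2 and 67.5 FPKM in 5-FU recipients, against 109.4 and 113.7 FPKM in control recipients, and did not pass (log2 difference -0.58, SE 0.19, adjusted p = 0.083). It was the partner gene lower at an unadjusted p under 0.05.

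The promoter windows were searched for motifs in all 35 genes that had them. The genes with none were Ska1, Nsl1, Zwilch and Spc24. A cell cycle homology region (TTTGAA or TTCGAA, either strand) was found in 21 of 38 windows, or 55.3%, beside 19.2% of all 32851 windows of that length in the table. A CCAAT box was found in 27 windows, or 71.1%, beside 37.4% of all windows, and both in 16, or 42.1%, beside 7.5%. An E2F site, searched as TTTCCCGC or TTTGGCGC or TTTCGCGC or TTTGCCGC on either strand, was found in 4 windows, or 10.5%, beside 2.3%. In Cenpw the last base of the CCAAT box is the first of the homology region. Windows with a homology region belonged to 13 of the 22 genes that rose and to 7 of the 13 that did not pass. Those with both elements belonged to 10 of the 22 and to 5 of the 13. These counts are matches of letters and say nothing of binding.

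**Figure D4:**
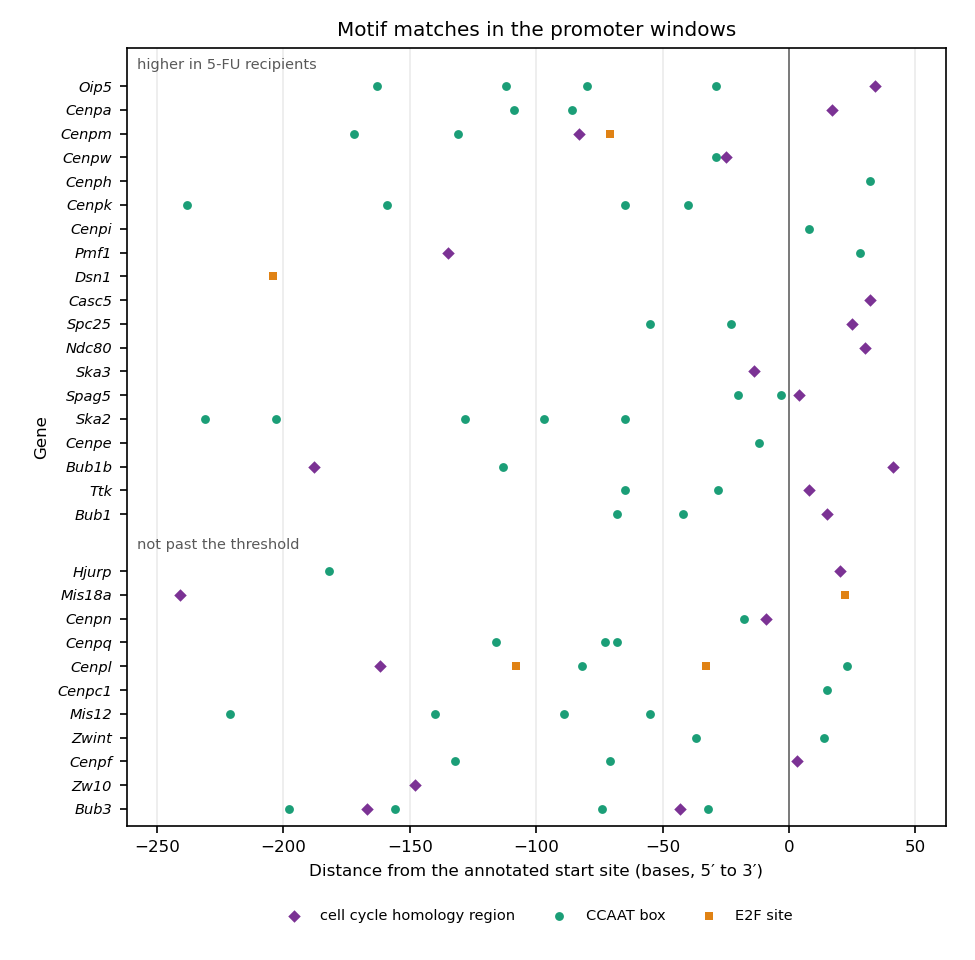
Distance of each motif match from the annotated start site, in bases, for the genes of the set with at least 1 match, the genes that rose above those that did not pass. Diamonds are cell cycle homology regions, circles CCAAT boxes and squares E2F sites, and 14 of the 21 distinct homology regions begin within 50 bases of each start they were read from. The region in Bub3 is drawn once from each of its 2 annotated starts.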

How the data were processed

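RNA was read from EGFP+ cells of 4 recipients, on SMART-Seq Ultra Low Input libraries with 75-base single-end reads per the labels' protocols. Per the submitters' processing notes, the authors' tools were TopHat2 2.0.13, Bowtie2 2.2.3, SAMtools 0.1.19 and Cuffnorm 2.2.1 with build mm10, and the deposited values are FPKM. The annotation, strand setting, scaling option and read totals are not stated there. The headers of the 5-FU columns give another day than their file names, and the labels' groups were used.

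FPKM were used as deposited. The test, for genes that reached 1 FPKM in at least 2 libraries, was limma 3.58.1 under R 4.3.3 (log2 after adding 1, mean-variance trend, two-sided, Benjamini-Hochberg over all 11496 genes, threshold 0.05, group alone in the model, 2 residual and 5.62 prior degrees of freedom), a procedure tested on simulated data. In the simulated data the noise was independent and the changed genes were all raised. They therefore cannot speak to differences between recipients or in cell mixture. An exact permutation test of 2 against 2 cannot go below p = 0.333 and was not used. Relative read worth came from the commonest ratio between low values of 909 to 961 genes. At 1 FPKM roughly 6.6 to 8.6 reads lie behind each kb of transcript, from 18 genes. The labels name the replicates biological and do not say whether donor cells were pooled. The p-values rest on differences between the 2 libraries of each group, which may share donors.

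The genes and lists were chosen with earlier results of these data known. Values in every library were to be given for the 12 genes of smallest p, those that did not pass or were negative, 1 subunit of any complex otherwise not shown, and the 4 partner genes of smallest p. The other genes given in full were added after their values were seen. Stra13, a name shared by several genes, was left out of the partner list, and Kif2b, listed at 0 in every library, was not tested. Sequences and coordinates are from RefSeq, exon overlaps from GENCODE M21, both GRCm38. Figures were drawn with matplotlib 3.10.9.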

Additional observations from a re-analysis of the deposited data

How the results depend on the processing

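Counts of genes past the threshold rest on 2 libraries a group. With no filter on low values, 0 of the 39 genes and 0 partner genes rose in limma, against 24 and 17, and 3 genes in all were higher and 4 lower, against 946 and 537. The smallest adjusted p in the set was then 0.082, while 31 of its genes still had an unadjusted p under 0.05, as did 3680 of all 16391 genes then tested. Without a mean-variance trend 548 genes were higher and 299 lower, and 21 of the 39 rose. A pseudocount of 5 lowered the median of the set to 0.90, as its construction does for low genes. Leaving out each library in turn gave 4 to 33 genes of the set higher, 3 to 20 partner genes higher and 0 to 2 lower, 88 to 2122 genes higher and 38 to 1876 lower among all tested, and a set median of 1.04 to 1.45. A lone library is there assumed to vary like the other group. Without 5-FU recipient 1 the Mis12 difference was -0.15, the low end of a range that reached 0.69. No other tested gene of the set changed sign under the 15 alternatives. Quantile, TPM and median-ratio scaling gave 22, 22 and 24 genes of the set higher and moved the median of all genes by less than 0.1.

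Each group has a replicate 1 and a replicate 2, and the labels tie these numbers to nothing shared. Deviations of same-numbered libraries correlated at -0.159 over genes. With the number as a replicate block, 27 of the 39 genes rose, 855 genes were higher and 539 lower. With crossed numbers, added after seeing the data, 30 of the set rose, 1 partner gene was lower, and 1686 genes were higher and 1365 lower. The cause of these shifts was not tested. The lowest level of the set, Bub1 at 0.756 FPKM in control recipient 1, lies in the library with the fewest reads behind 1 FPKM.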
